A study of Mus musculus with 6 samples.

Results

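Autophagy is the route by which a cell wraps cytoplasm, worn organelles or protein aggregates in a double membrane, the autophagosome, and delivers them to the lysosome for breakdown. The ULK kinase complex starts the membrane, a class III PI3-kinase complex marks it with the lipid PI3P, WIPI proteins read that mark, and ubiquitin-like reactions attach ATG12 to ATG5 and the ATG8 proteins (LC3 and GABARAP) to membrane lipid. Cargo receptors such as p62 then hold the cargo to the ATG8 proteins. Here the mRNAs of 34 autophagy genes were followed in fibroblasts that lack TIA1 or TIAR, related RNA-binding proteins that control splicing, translation and stress granules. The genes, taken by name from the scanner files, made 34 of the 34797 gene names on the array. They were read by 54 of 55681 probes, on 63 spots of each array, and 19 of the 34 genes had 1 probe.

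Murine embryonic fibroblasts (MEFs) are fibroblasts grown from mouse embryos, and all the lines compared were immortalized. Agilent 1-colour arrays, 6 in all and 2 per group from independent experiments, measured their RNA in lines that were WT, TIA1 KO or TIAR KO. The labels give no treatment and assign the strain W4 to WT, BALB/c to TIA1 KO and C57BL/6 to TIAR KO MEFs, so genotype, strain and line cannot be told apart, and they do not say how many clones or embryos a line came from. All 6 arrays lay on 1 slide, but the TIA1 KO arrays lay in row 2 and the other arrays in row 1, so the absence of TIA1 and the position on the slide cannot be told apart. The TIA1 KO arrays also stood apart in signal. Their median spot intensity was 458 and 218, against 152 and 140 for WT and 136 and 119 for TIAR KO MEFs. Only 16000 and 19920 of their probes were rated well above background, against 23531 and 26254 for WT and 24754 and 25985 for TIAR KO MEFs. The SD between the arrays of a group was 0.27 for WT, 0.44 for TIA1 KO and 0.29 for TIAR KO MEFs on the log2 scale. All levels below are normalized log2 intensities and all differences are log2 fold changes with their standard error (SE, n = 2 arrays per group). A probe was called changed at a Benjamini-Hochberg adjusted p under 0.05 over all probes and a fold change above 2.

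The deleted genes were read first. On the brightest Tial1 probe (Tial1 encodes TIAR) the TIAR KO arrays read 9.57 and 11.60. The only WT array with a usable spot read 13.22, the other spot having been left out as an outlier. The difference of -2.63 (SE 0.87) did not pass the test (adjusted p = 0.200), but a further Tial1 probe was lower by -1.58 (SE 0.26, adjusted p = 0.0254) and was called. That call was lost in 5 of 13 other analyses, among them those without WT replicate 1 or either TIAR KO array. On the brightest Tia1 probe the levels were 10.72 and 8.54 in WT MEFs, 7.87 and 8.44 in TIA1 KO, and 9.56 and 9.58 in TIAR KO MEFs. Its difference in TIA1 KO MEFs was -1.47 (SE 0.79, adjusted p = 0.288), and that of a further Tia1 probe was -1.62 (SE 0.42, adjusted p = 0.116), so the loss of Tia1 mRNA did not pass the test. A last Tia1 probe, near background on both WT arrays, differed by 0.87 (SE 0.28, adjusted p = 0.149). Whether these probes lie within the deleted parts was not analysed here. The probes of Gapdh, a glycolytic enzyme used as a reference, differed from WT by -0.39 to 0.10 in TIA1 KO and by -0.29 to 0.09 in TIAR KO MEFs, and none was called.

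Of 11 fibroblast markers, Col1a1, Col1a2, Col3a1, Col5a1, Pdgfrb, Vim and S100a4 were well above background on every array, S100a4 gave the highest mean signal, and 7 and 9 markers were so rated on the WT, 8 and 9 on the TIA1 KO and 10 on each TIAR KO array. Lum, a fibroblast proteoglycan, was near background on all 6 arrays. Several markers differed between the lines. Pdgfra read 6.37 and 6.40 in WT MEFs, near background, 10.05 and 10.23 in TIA1 KO and 11.68 and 11.51 in TIAR KO MEFs. Thy1 was at 14.84 and 14.74 in TIAR KO MEFs and between 6.63 and 7.48 on the other arrays. Dcn read 6.57 and 6.62 in WT, 9.24 and 9.29 in TIA1 KO, near background on 1 array of each of these groups, and 15.67 and 15.82 in TIAR KO MEFs. Summed over the list, the level was 18.93 and 19.03 in WT MEFs, 20.07 and 20.01 in TIA1 KO and 20.24 and 20.27 in TIAR KO MEFs. The leukocyte markers Ptprc and Adgre1 and the endothelial marker Cdh5 were near background on all arrays, and the epithelial marker Epcam on all but 1 TIA1 KO array, while Cd68, Cd14 and Itgam, Kdr and Krt19 from the same lists were well above background throughout. Some of these markers moved with the lines. Of the 6 epithelial markers, Krt18, well above background on 1 of the 2 WT arrays, rose by 2.72 (SE 0.14, adjusted p = 0.000707) and Krt8 by 1.23 (SE 0.15, adjusted p = 0.00990) in TIAR KO MEFs, where Cdh1 was at least 2.53-fold higher than in WT MEFs, in which it was near background. In TIA1 KO MEFs Krt8 rose by 1.23 (SE 0.17, adjusted p = 0.0444) and Krt19 by 1.05 (SE 0.15, adjusted p = 0.0498). Of the 6 leukocyte markers, Itgam rose by 1.82 (SE 0.24, adjusted p = 0.0415) in TIA1 KO MEFs and Cd14 fell by 1.32 (SE 0.18, adjusted p = 0.0136) in TIAR KO MEFs. Of the 11 fibroblast markers, 7 were called higher in TIA1 KO and 8 in TIAR KO MEFs and 0 lower, and of the 4 endothelial markers 0 were called. These counts use the brightest probe of each marker. A dimmer probe of Kdr, near background on the WT and TIA1 KO arrays, was called at least 2.33-fold higher in TIAR KO than in WT MEFs (measured difference 1.34, SE 0.15, adjusted p = 0.00708). The part of these differences in the autophagy results was not tested, and in bulk RNA fewer cells of a type and less RNA per cell cannot be told apart.

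The autophagy genes were widely expressed. Of the 54 probes, 38 were well above background on all 6 arrays, against 24.7% of all probes, and 29 of the 34 genes were so on their brightest probe, which stands for a gene below unless another is named. Atg4a, an ATG8-processing protease, was near background on every array, and Atg2b and Tfeb were so on 1 of the 2 TIA1 KO arrays. Few members changed. In TIAR KO MEFs 2 probes were higher than in WT and 3 lower, 9.26% of the members, where 5.76% of all probes were called, 3.39% higher and 2.37% lower. TIA1 KO MEFs had 0 member probes called higher and 2 lower, 3.70% of the members, where 3.54% of all probes were called, 2.18% higher and 1.36% lower. Between the knockouts 3 probes were higher in TIAR KO than in TIA1 KO MEFs and 0 lower, 5.56% of the members, where 3.35% of all probes were called, 1.72% higher and 1.63% lower. At an unadjusted p under 0.05 there were 20 member probes in TIAR KO MEFs (37.0%, beside 20.2% of all probes), 20 in TIA1 KO MEFs (37.0%, beside 27.8%) and 18 between the knockouts (33.3%, beside 22.6%). Both comparisons with WT use the same WT arrays.

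**Figure D1:**
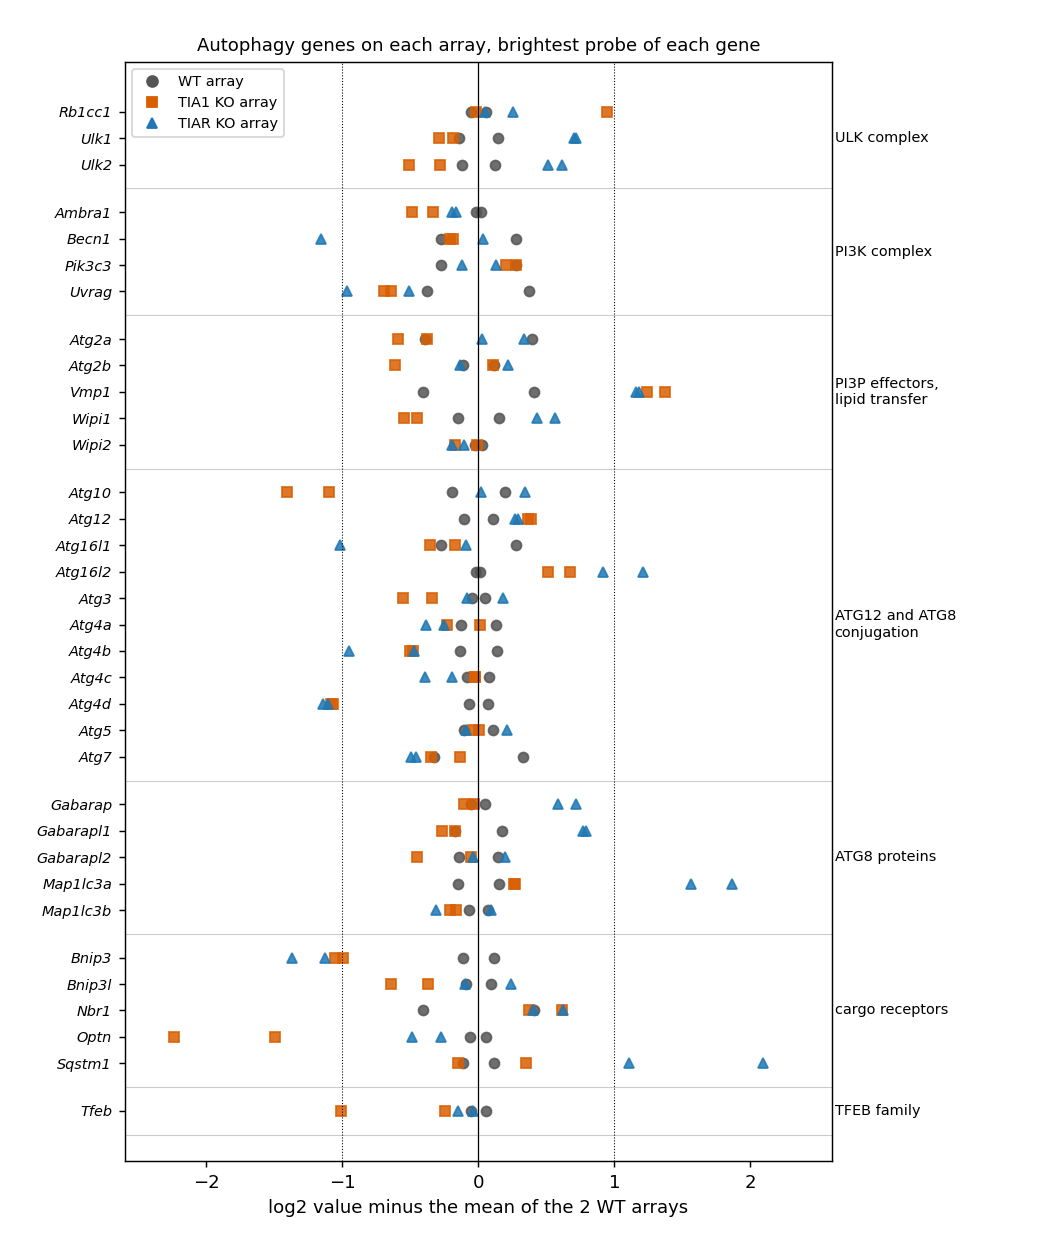
Levels of the 34 autophagy genes on each array, as the log2 value of the brightest probe minus the mean of the 2 WT arrays (horizontal axis), with genes grouped by role; dotted lines mark a 2-fold difference. Map1lc3a and Atg16l2 lay above WT and Atg4d and Bnip3 below it on both TIAR KO arrays, while most genes, Map1lc3b among them, lay within 2-fold of WT on all arrays.

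The clearest change was in the ATG8 family, the ubiquitin-like proteins that are attached to the autophagosome membrane. Map1lc3a encodes LC3A and was read at 10.86 and 11.16 in WT MEFs, 11.28 and 11.27 in TIA1 KO, and 12.88 and 12.57 in TIAR KO MEFs. Both TIAR KO arrays stood above all other arrays. Map1lc3a rose by 1.71 (SE 0.19, 3.28-fold, adjusted p = 0.00728) in TIAR KO MEFs, and it was 1.45 (SE 0.18, 2.73-fold, adjusted p = 0.0400) higher in TIAR KO than in TIA1 KO MEFs. Its difference in TIA1 KO MEFs was 0.27 (SE 0.18, adjusted p = 0.367). The rise over WT was called in 12 of 13 other analyses, with estimates between 1.28 and 1.87. The exception was a test of the fold above 2 itself (adjusted p = 0.232). The call against TIA1 KO MEFs was lost in 7 of 13 other analyses, the authors' own log2 table among them, with estimates between 1.29 and 2.54. Those without either TIAR KO array are among the 7 but cannot decide, because no probe on the array passed in them.

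Map1lc3b, which encodes LC3B, the form most often followed as a marker of autophagosomes, did not pass the test. It was read at 14.15 and 14.29 in WT MEFs, 14.01 and 14.05 in TIA1 KO, and 14.31 and 13.90 in TIAR KO MEFs. The TIAR KO arrays lay on either side of the WT arrays, and the TIA1 KO arrays lay just below them. The difference from WT was -0.19 (SE 0.15, adjusted p = 0.452) in TIA1 KO and -0.11 (SE 0.19, adjusted p = 0.830) in TIAR KO MEFs. With arrays set to a common median the TIA1 KO difference was -1.78 and was called (adjusted p = 0.00191). In that setting 13925 of all 55681 probes were called lower, all 8 Gapdh probes (-1.83 to -1.42) among them. Its probe was printed on 10 spots, whose raw intensities within an array had a coefficient of variation of 12.4% to 24.2%. The files assign Map1lc3a and Map1lc3b to probes of 60 bases at chr2:155103435-155103494 and chr8:124121771-124121830 (mm9, plus strand). The first 30 bases of each are shown, because the 2 LC3 genes gave different results. Whether either probe also binds other mRNAs was not tested.
Map1lc3a: ggctcctaaactaagctatttcagtcccca
Map1lc3b: cactgctctgtcttgtgtaggttgtatacg

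The GABARAP branch of the family acts late in autophagosome growth and closure. In TIAR KO MEFs Gabarap and Gabarapl1 lay less than 2-fold above WT and were not called. Gabarap was read at 15.40 and 15.29 in WT MEFs, 15.31 and 15.24 in TIA1 KO, and 16.06 and 15.93 in TIAR KO MEFs, a difference of 0.65 (SE 0.15, adjusted p = 0.0649) from WT for the latter. A further Gabarap probe differed by 1.00 (SE 0.18, adjusted p = 0.0370), which passed the adjusted p but at 1.997-fold not the fold threshold, while the dimmest one differed by -0.58 (SE 0.21, adjusted p = 0.212). Gabarapl1 was read at 15.29 and 15.63 in WT MEFs, 15.19 and 15.28 in TIA1 KO, and 16.23 and 16.25 in TIAR KO MEFs. Its difference from WT was 0.78 (SE 0.17, adjusted p = 0.0617) in TIAR KO MEFs. For both genes the TIAR KO arrays were above all others without overlap. Gabarapl2 differed by -0.25 (SE 0.22, adjusted p = 0.482) in TIA1 KO and by 0.08 (SE 0.18, adjusted p = 0.881) in TIAR KO MEFs. The median difference of the 5 ATG8 genes was 0.65 in TIAR KO MEFs and -0.19 in TIA1 KO MEFs, beside -0.02 and -0.09 over all probes, and the size of both hung on the scaling. With arrays set to a common median they were 0.17 and -1.78, beside -0.02 and -0.67 over all probes. With the scanner's processed signal they were 0.33 and -0.40, beside -0.04 and 1.98.

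**Figure D2:**
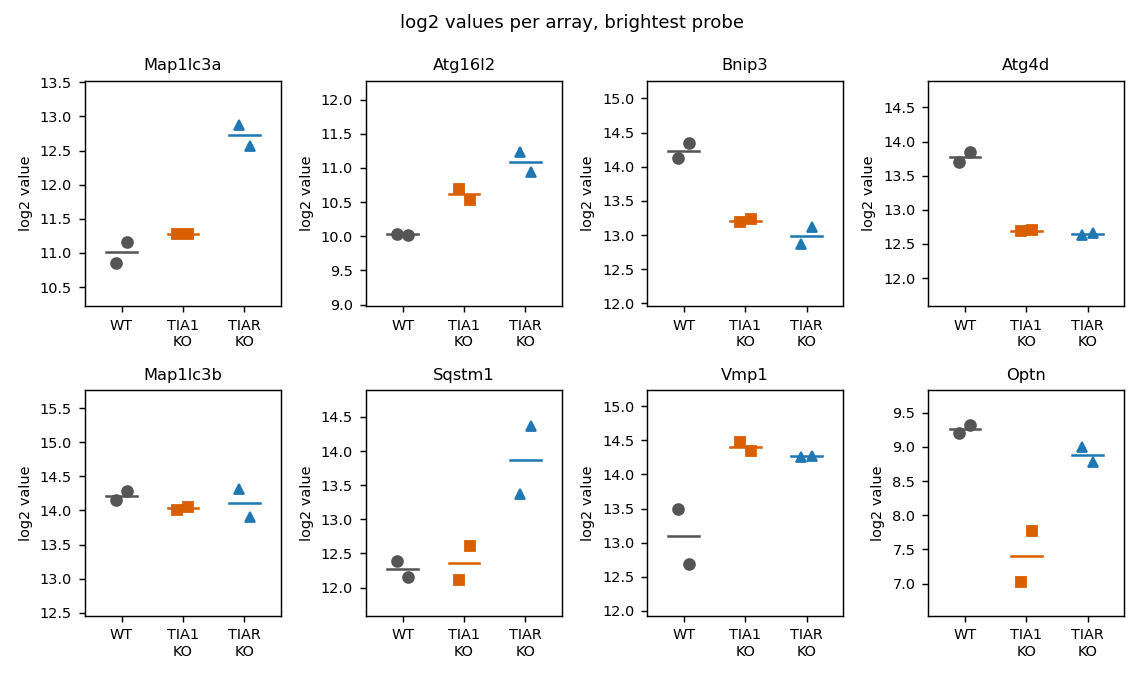
Normalized log2 values of 8 autophagy genes on each array (vertical axis) by group (horizontal axis), with a symbol per array and a line at the mean of the 2 arrays; each panel has its own scale. Map1lc3a, Atg16l2 and Sqstm1 were highest on the TIAR KO arrays, Bnip3 and Atg4d were highest on the WT arrays, and the groups lay close together for Map1lc3b.

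Among the enzymes and scaffolds of the conjugation systems, Atg16l2 and Atg4d changed. ATG16L2 is a relative of the scaffold ATG16L1, which places LC3 conjugation on the membrane. Atg16l2 was read at 10.04 and 10.01 in WT MEFs, 10.70 and 10.53 in TIA1 KO, and 11.23 and 10.94 in TIAR KO MEFs, in 3 separate ranges. It rose by 1.06 (SE 0.16, 2.09-fold, adjusted p = 0.0215) in TIAR KO MEFs, whereas its difference in TIA1 KO MEFs was 0.59 (SE 0.16, adjusted p = 0.120). A further Atg16l2 probe, 735 bases away, was higher by 0.71 (SE 0.17, adjusted p = 0.0793) in TIAR KO MEFs. The call was lost in 9 of 13 other analyses, among them those without any 1 of the 4 arrays (adjusted p between 0.0505 and 0.0864) and the authors' own log2 table, where the difference was 0.96.

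ATG4 proteases trim ATG8 proteins before conjugation and release them from membranes afterwards. Atg4d was read at 13.70 and 13.84 in WT MEFs, 12.69 and 12.70 in TIA1 KO, and 12.63 and 12.66 in TIAR KO MEFs. All knockout arrays lay below both WT arrays, and the 2 knockouts differed by -0.05 (SE 0.15, adjusted p = 0.857). Atg4d fell by 1.12 (SE 0.14, 2.18-fold, adjusted p = 0.0118) in TIAR KO and by 1.08 (SE 0.15, 2.11-fold, adjusted p = 0.0498) in TIA1 KO MEFs. The TIA1 KO call lay at the threshold and was lost in 9 of 13 other analyses, though the estimate stayed between -2.64 and -1.01. Among the 9 were the authors' log2 table and the fit without TIA1 KO replicate 1. The fits without either WT array and that with the scanner's processed signal were among them too. They cannot decide, because no probe on the array passed there. The TIAR KO call was lost in 5 of 13, among them those without WT replicate 2 (adjusted p = 0.0553), TIAR KO replicate 1 (0.0647) or TIAR KO replicate 2 (0.0636).

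The probes of Atg4c disagreed. Its brighter probe read 9.70 and 9.86 in WT MEFs, 9.76 on both TIA1 KO arrays, and 9.39 and 9.59 in TIAR KO MEFs, and was not called in any comparison. Its dimmer probe read 8.91 and 8.94 in WT MEFs, 7.23 and 7.21 in TIA1 KO, and 8.59 and 8.36 in TIAR KO MEFs. The dimmer probe was well above background on neither TIA1 KO array, so the measured difference of -1.70 (SE 0.15, adjusted p = 0.0188) is given as at least 2.47-fold lower than in WT MEFs, and the level in TIAR KO MEFs was at least 1.81-fold higher than in TIA1 KO MEFs (measured difference 1.25, SE 0.17, adjusted p = 0.0447). Such a bound sets each array of the dim group to the higher of the probe's own level and the lowest level rated well above background on that array. The brighter probe lay at chr4:98926364-98926423 and the dimmer one at chr4:98926380-98926439 (mm9, plus strand), 16 bases further on. They share 44 of their 60 bases, marked in capitals in the 30-base stretches shown, which are the start of the brighter and the end of the dimmer probe. The call against WT was lost in 5 of 13 other analyses, with the measured difference between -2.251 and -1.685. The call between the knockouts was lost in 8 of 13, with the measured difference between 1.139 and 1.558. Against WT, the fits without either WT array or with the scanner's processed signal cannot decide, because no probe on the array passed in them. The same holds between the knockouts for the fits without either TIAR KO array or with the replicate block. The stretches are printed because almost the same stretch of mRNA gave a call on one probe and none on the other.
Atg4c brighter probe: gccttaagtgtgctgtGAGTTTACTTAAAG
Atg4c dimmer probe: AGAGTGTAAGAGCTattaccaagccaggat

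The other genes of this group did not pass the test. Atg10, the E2-like enzyme that passes ATG12 to ATG5, was well above background on all WT and TIAR KO arrays and on neither TIA1 KO array, and was at least 2.06-fold lower there than in WT MEFs (measured difference -1.25, SE 0.23, adjusted p = 0.0740), which was called in 4 of 13 other analyses. Its further probe, also near background there, was at least 1.44-fold lower (measured difference -1.21, SE 0.29, adjusted p = 0.107). Atg5, which carries ATG12, differed from WT by -0.02 (SE 0.16) in TIA1 KO and 0.06 (SE 0.18) in TIAR KO MEFs, and the E2-like enzyme of LC3, Atg3, by -0.45 (SE 0.17) and 0.05 (SE 0.16). The E1-like enzyme Atg7 differed by -0.24 (SE 0.28) and -0.48 (SE 0.24), the protease gene Atg4b by -0.49 (SE 0.17) and -0.71 (SE 0.22), Atg16l1 by -0.27 (SE 0.25) and -0.55 (SE 0.36), and Atg12 by 0.38 (SE 0.16) and 0.28 (SE 0.15). A dimmer Atg12 probe differed by -0.73 (SE 0.31, adjusted p = 0.212) in TIA1 KO and by 0.01 (SE 0.28) in TIAR KO MEFs, so the Atg12 probes disagreed in sign in TIA1 KO MEFs. Over the 11 genes the median difference was -0.24 in TIA1 KO and -0.30 in TIAR KO MEFs. Over the 13 other analyses the first lay between -1.59, with arrays set to a common median, and -0.12, without WT replicate 1, and the second between -0.39, with a common median, and -0.09, without TIAR KO replicate 1.

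Among the cargo receptors, which tie cargo to ATG8 proteins, Bnip3 fell. BNIP3 sits in the outer mitochondrial membrane and marks mitochondria for autophagy, and its gene is a known target of hypoxia-inducible factor. Bnip3 was read at 14.12 and 14.35 in WT MEFs, 13.18 and 13.24 in TIA1 KO, and 12.86 and 13.11 in TIAR KO MEFs. All knockout arrays lay below both WT arrays. It fell by 1.25 (SE 0.17, 2.38-fold, adjusted p = 0.0145) in TIAR KO MEFs, and in TIA1 KO MEFs its difference of -1.02 (SE 0.17) just missed the threshold (adjusted p = 0.0616) and was called in 4 of 13 other analyses. A probe 120 bases away was lower by -1.24 (SE 0.15, adjusted p = 0.0107) in TIAR KO and by -1.01 (SE 0.17, adjusted p = 0.0688) in TIA1 KO MEFs. A dimmer probe 224 bases away differed by -0.88 (SE 0.16, adjusted p = 0.0335) in TIAR KO MEFs, under the fold threshold. On the brightest probe the TIAR KO call was lost in 5 of 13 other analyses, among them those without WT replicate 2 (adjusted p = 0.0603), TIAR KO replicate 1 (0.0728) or TIAR KO replicate 2 (0.0505), and on the probe 120 bases away in 4, among them those without WT replicate 2 or TIAR KO replicate 2. Its relative Bnip3l (NIX) differed by -0.51 (SE 0.18, adjusted p = 0.176) and 0.07 (SE 0.18, adjusted p = 0.892).

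Sqstm1 encodes p62, which binds ubiquitinated cargo and is itself degraded with it. It was read at 12.38 and 12.15 in WT MEFs, 12.11 and 12.62 in TIA1 KO, and 13.37 and 14.36 in TIAR KO MEFs. Both TIAR KO arrays were above all others, but 0.99 apart. Its difference from WT was 1.60 (SE 0.34, 3.03-fold) in TIAR KO MEFs and did not pass the test (adjusted p = 0.0557), although it did without TIAR KO replicate 1 (2.09, adjusted p = 0.0196) and when only probes well above background were tested (adjusted p = 0.0427). For TIA1 KO MEFs the difference was 0.10 (SE 0.24, adjusted p = 0.799), and that between the knockouts was 1.50 (SE 0.41, adjusted p = 0.148). A second Sqstm1 probe was well above background on the TIAR KO arrays only and read 7.68 and 7.56 in WT MEFs and 7.68 and 7.74 in TIAR KO MEFs, where the groups overlapped (measured difference 0.09, SE 0.14, adjusted p = 0.819). Optn, a receptor for ubiquitinated mitochondria and bacteria, had a mean level of 9.27 in WT MEFs, 7.40 in TIA1 KO and 8.89 in TIAR KO MEFs, with the TIA1 KO arrays below all others. It was near background on both TIA1 KO arrays and at least 2.58-fold lower there than in WT MEFs (measured difference -1.87, SE 0.30, adjusted p = 0.0598), which was called in 5 of 13 other analyses. Nbr1, a receptor related to p62, differed by 0.49 (SE 0.33) in TIA1 KO and 0.51 (SE 0.29) in TIAR KO MEFs.

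**Figure D3:**
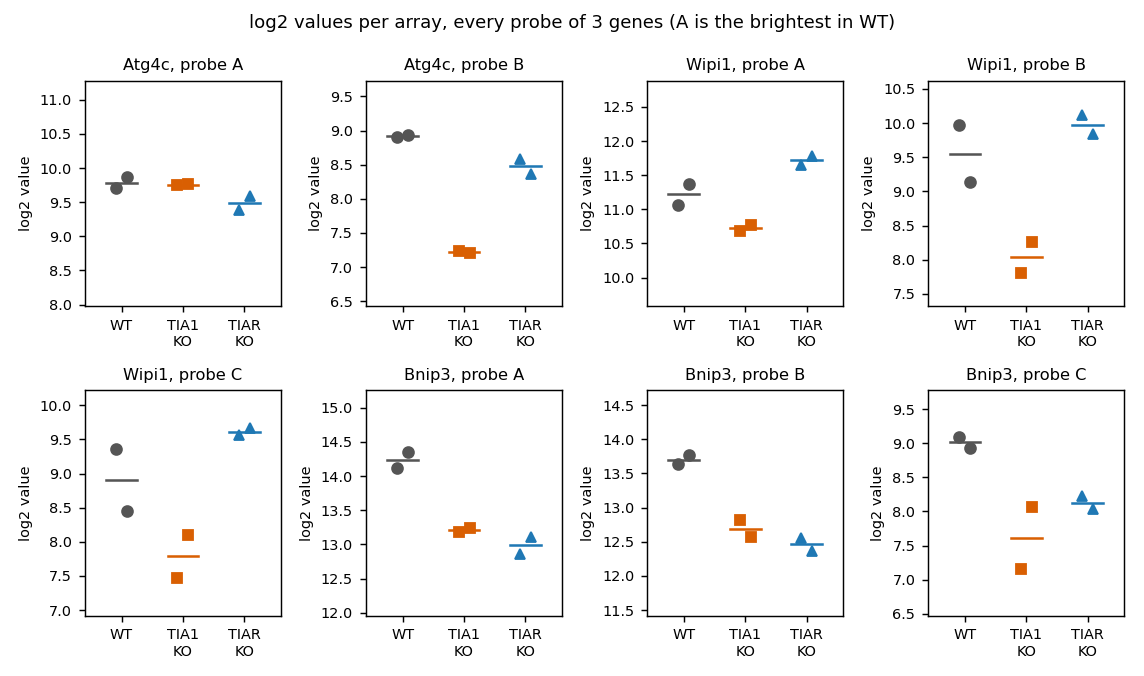
Normalized log2 values (vertical axis) of each probe of Atg4c, Wipi1 and Bnip3 by group, with a symbol per array and a line at the mean of the 2 arrays; letters order the probes by level in WT and each panel has its own scale. The probes of Bnip3 were all highest in WT MEFs. In TIA1 KO MEFs the brighter Atg4c probe lay within its own WT range, whereas the dimmer one, near background there, lay below its own.

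None of the members that act in starting the membrane was called on its brightest probe. Of the ULK complex, the kinase gene Ulk1 was read at 12.99 and 12.70 in WT MEFs, 12.66 and 12.56 in TIA1 KO, and 13.56 and 13.55 in TIAR KO MEFs. Its difference was 0.71 (SE 0.16, adjusted p = 0.0693) in TIAR KO MEFs, and Ulk2 differed there by 0.56 (SE 0.16, adjusted p = 0.116). Both were higher on the TIAR KO arrays than on all others, while Rb1cc1, the scaffold FIP200, differed by 0.15 (SE 0.15, adjusted p = 0.684). On a dimmer Ulk2 probe, near background on 1 of the 2 TIA1 KO arrays, the knockouts overlapped. That probe differed from WT by 0.64 (SE 0.17) in TIAR KO MEFs and by 0.56 (SE 0.19) in TIA1 KO MEFs. In the latter the brightest Ulk2 probe differed by -0.39 (SE 0.19), so the Ulk2 probes disagreed in sign there. The 4 members of the PI3-kinase complex were not called. In TIAR KO MEFs the differences of Becn1 (Beclin 1), Pik3c3 (the lipid kinase VPS34), Uvrag and Ambra1 were -0.56 (SE 0.42), 0.00 (SE 0.23), -0.74 (SE 0.30) and -0.18 (SE 0.14), and in TIA1 KO MEFs they were -0.20 (SE 0.24), 0.24 (SE 0.24), -0.67 (SE 0.30) and -0.41 (SE 0.16). A dimmer Pik3c3 probe, near background on 1 of the 2 TIA1 KO arrays, differed by -0.32 (SE 0.16) in TIAR KO MEFs. In TIA1 KO MEFs it differed by -0.70 (SE 0.35), so the Pik3c3 probes disagreed in sign there. The Becn1 difference in TIAR KO MEFs rested on single arrays, at 0.03 without TIAR KO replicate 1 and -1.16 without replicate 2. With arrays set to a common median the TIA1 KO differences of these 4 genes were -1.70, -1.02, -2.26 and -1.99, and all but that of Pik3c3 were called. In that setting 13925 of all 55681 probes were called lower, all 8 Gapdh probes (-1.83 to -1.42) among them. Over the 13 other analyses the Uvrag difference was as small as -0.36 in TIAR KO and -0.29 in TIA1 KO MEFs.

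Vmp1, a lipid scramblase of the endoplasmic reticulum needed for autophagosome formation, was read at 13.50 and 12.69 in WT MEFs, 14.47 and 14.34 in TIA1 KO, and 14.25 and 14.27 in TIAR KO MEFs. All knockout arrays were above both WT arrays, which were 0.81 apart. The differences of 1.31 (SE 0.32, 2.48-fold) in TIA1 KO and 1.17 (SE 0.28, 2.25-fold) in TIAR KO MEFs did not pass the test (adjusted p = 0.108 and 0.0793). The TIAR KO difference was called in 1 of 13 other analyses, that without WT replicate 1 (1.57). The TIA1 KO difference was also called in 1 of 13, and it turned to -0.28 with arrays set to a common median. Wipi1, a PI3P reader, was read by 3 probes. On the probe of middle level, TIAR KO MEFs read 10.12 and 9.84 and TIA1 KO MEFs 7.81 and 8.27, near background on 1 of the 2 arrays, a called difference of 1.94 (SE 0.24, 3.85-fold, adjusted p = 0.0379), with WT at 9.97 and 9.13. That call was lost in 6 of 13 other analyses, with estimates between 1.715 and 2.454. The fits without either TIAR KO array are among the 6 but cannot decide, because no probe on the array passed in them. On the brightest Wipi1 probe the difference between the knockouts was 0.99 (SE 0.16, adjusted p = 0.0610). The dimmest was well above background on neither TIA1 KO array and was at least 2.92-fold higher in TIAR KO MEFs (measured difference 1.83, SE 0.27, adjusted p = 0.0517). Wipi2 and the lipid-transfer genes Atg2a and Atg2b differed from WT by -0.09, -0.48 and -0.25 in TIA1 KO and by -0.15, 0.18 and 0.04 in TIAR KO MEFs, with adjusted p values from 0.359 to 0.947.

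Tfeb, which encodes a transcription factor that switches on lysosomal and autophagy genes, differed from WT by -0.63 (SE 0.30, adjusted p = 0.254) in TIA1 KO and -0.10 (SE 0.14, adjusted p = 0.800) in TIAR KO MEFs. The TIA1 KO difference was -0.25 without TIA1 KO replicate 1 and -1.01 without replicate 2. It was called with arrays set to a common median (-1.59), where 13925 of all 55681 probes were called lower. TFEB and its relatives bind CACGTG, the core of the so-called CLEAR element, so the members' promoters were searched for it. RefSeq promoter sequences (GRCm38.p6), from 250 bases before to 50 bases after the start site, were matched by symbol for 27 of the 34 genes, without Rb1cc1, Map1lc3a, Pik3c3, Becn1, Bnip3l, Atg16l1 and Atg12. The motif CACGTG was found in 4 of these 27 genes (14.8%) and in 8.09% of the 27025 genes of the table. The longer TCACGTGA, which contains it, was found in 1 member, Atg3 (3.70%), and in 1.12% of all genes. Both motifs are palindromes, so a match on one strand is a match on the other. The promoters with a match were those of Bnip3, Atg3, Atg5 and Atg7, of which Bnip3 alone was called in a comparison, and none of the sites was tested for binding. Each is shown as 30 bases in the direction of the gene with the motif in capitals, from chr7:138909597-138909626 (minus strand), chr16:45158723-45158752 and chr16:45158746-45158775 (plus), chr10:44268313-44268342 (plus) and chr6:114670952-114670981 (plus). The sites begin 108, 94 and 71, 14 and 132 bases before the start sites.
Bnip3: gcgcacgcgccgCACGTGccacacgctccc
Atg3 upstream site: gcctccttttgtCACGTGtcctgggagagt
Atg3 downstream site: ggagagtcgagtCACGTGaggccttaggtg
Atg5: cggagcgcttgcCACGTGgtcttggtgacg
Atg7: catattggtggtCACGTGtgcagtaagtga

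The members were also read as a list. The median difference over the 54 probes was -0.26 in TIA1 KO MEFs, beside -0.09 over all probes, with 41 of 54 below zero, and 0.03 in TIAR KO MEFs, beside -0.02, with 25 of 54 below zero. Between the knockouts it was 0.27, beside 0.05 over all probes. When only probes well above background were tested, the TIA1 KO median was -0.27 over the members and -0.26 over all such probes, and the median between the knockouts was 0.31 and 0.23. A probe could pass that filter through 1 group alone, and fewer probes were rated well above background on the TIA1 KO arrays, so the filter itself bears on these medians and nothing is read from them. In TIA1 KO MEFs the 2 arrays of a group did not overlap with WT for 64.8% of member probes and 65.2% of all probes, in TIAR KO MEFs for 59.3% and 49.0%, and the knockouts did not overlap with each other for 72.2% and 59.9%. The counts for TIA1 KO MEFs hung on how arrays with such unequal intensity were put on a common scale. With a common array median in place of loess and quantile normalization, the median over all probes fell to -0.67 and that over the members to -1.65. Of the member probes, 40 of 54 were called lower, beside 13925 of all 55681 probes. Over all probes the calls went from 1213 higher and 756 lower to 1876 higher and 13925 lower. The share of all called probes that were higher thus went from 61.6% to 11.9%. The 8 of 34 genes above WT in TIA1 KO MEFs became 0 of 34, Vmp1, Map1lc3a, Sqstm1 and Atg12 among those that turned negative. All 8 Gapdh probes fell with them, by 1.42 to 1.83, and all 8 were called.

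A wider list of 62 other genes of the pathway, all present on the array, was read the same way. In TIA1 KO MEFs 1 of them was called higher and 2 lower than in WT MEFs, in TIAR KO MEFs 1 higher and 3 lower, and between the knockouts 2 were higher and 1 was lower in TIAR KO MEFs. These were 4.84%, 6.45% and 4.84% of the list, beside 3.54%, 5.76% and 3.35% of all probes. The list's median difference was -0.26 in TIA1 KO and -0.05 in TIAR KO MEFs, beside -0.09 and -0.02 over all probes. Its largest change was in Retreg1, which the files name Fam134b and which encodes a receptor for autophagy of the endoplasmic reticulum. Retreg1 was read at 11.65 and 12.03 in WT MEFs, 13.07 and 13.15 in TIA1 KO, and 8.93 and 8.87 in TIAR KO MEFs. The 3 groups occupied separate ranges. It fell by 2.93 (SE 0.18, 7.64-fold, adjusted p = 0.00112) in TIAR KO MEFs, a call kept in all 13 other analyses, and was 18.5-fold lower in TIAR KO than in TIA1 KO MEFs (-4.21, SE 0.15, adjusted p = 0.00571). Its difference in TIA1 KO MEFs was 1.27 (SE 0.20, adjusted p = 0.0572), which turned to -0.17 with arrays set to a common median. Between the knockouts the difference stayed between -4.44 and -3.22 over the 13 other analyses. Its call was lost in 3 of them, with the replicate block and without either TIAR KO array. No probe on the array passed in these fits, so they cannot decide.

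Nrbf2, a subunit of the autophagy-specific PI3-kinase complex, rose in TIAR KO MEFs. It read 11.71 and 11.73 in WT MEFs, 12.02 and 12.09 in TIA1 KO, and 12.98 and 13.04 in TIAR KO MEFs. The rise in TIAR KO MEFs was 1.29 (SE 0.14, 2.45-fold, adjusted p = 0.00642), called in 10 of 13 other analyses. Mitf, a relative of Tfeb, read 10.71 and 10.75 in WT MEFs, 7.87 and 9.33 in TIA1 KO, and 9.05 and 9.27 in TIAR KO MEFs. All knockout arrays lay below WT. Mitf fell by 1.57 (SE 0.15, 2.98-fold, adjusted p = 0.00476) in TIAR KO MEFs. In TIA1 KO MEFs, where it was near background on 1 of the 2 arrays, the difference of -2.14 (SE 0.52) did not pass the test (adjusted p = 0.109). Over the 13 other analyses that difference lay between -2.97 and -1.41. A dimmer Mitf probe was called lower in both, by -1.12 (SE 0.16, adjusted p = 0.0157) in TIAR KO MEFs and by at least 2.13-fold in TIA1 KO MEFs, where it was near background (measured difference -1.27, SE 0.17, adjusted p = 0.0432). Mtor, the kinase that holds back autophagy when nutrients are plentiful, was called on its dimmer probe only, at -1.69 (SE 0.14, adjusted p = 0.00266) in TIAR KO MEFs. Its brightest probe differed there by -0.88 (SE 0.14, adjusted p = 0.0230), under the fold threshold. In TIA1 KO MEFs the dimmer probe, near background on 1 of the 2 arrays, differed by -1.67 (SE 0.25, adjusted p = 0.0522). The brightest differed there by -0.81 (SE 0.15, adjusted p = 0.0792), and neither was called.

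Prkaa2, a catalytic subunit of AMPK, the energy-sensing kinase that activates ULK1, was the only gene of the wider list called in both knockouts on its brightest probe. It read 9.17 and 9.30 in WT MEFs, 6.92 and 7.59 in TIA1 KO, where it was near background, and 8.12 and 7.86 in TIAR KO MEFs. It fell by 1.25 (SE 0.16, 2.38-fold, adjusted p = 0.0130) in TIAR KO MEFs and was at least 2.69-fold lower in TIA1 KO MEFs (measured difference -1.98, SE 0.28, adjusted p = 0.0473). The TIAR KO call was lost in 5 of 13 other analyses, among them those without WT replicate 2 or TIAR KO replicate 2. The TIA1 KO call was lost in 7, the authors' log2 table among them, with the measured difference between -2.458 and -1.645. The fits without either WT array and that with the scanner's processed signal are among the 7. They cannot decide, because no probe on the array passed in them. Pink1, the kinase that flags damaged mitochondria, read 9.76 and 10.72 in WT MEFs, 8.83 and 9.28 in TIA1 KO, near background on 1 of the 2 arrays, and 10.94 and 11.25 in TIAR KO MEFs. It was higher in TIAR KO than in TIA1 KO MEFs by 2.04 (SE 0.24, 4.12-fold, adjusted p = 0.0354) and was called against WT in neither, at -1.19 (SE 0.39) and 0.85 (SE 0.34).

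Of the genes that bring autophagosomes to lysosomes, Vps16 and Stx17 were called. VPS16 is a core subunit of the HOPS tethering complex. Vps16 read 13.12 and 12.96 in WT MEFs, 11.21 and 11.27 in TIA1 KO, and 12.77 and 13.27 in TIAR KO MEFs, with the TIA1 KO arrays apart. It fell by 1.80 (SE 0.16, 3.49-fold, adjusted p = 0.0192) in TIA1 KO MEFs and was 1.78 (SE 0.22, adjusted p = 0.0403) higher in TIAR KO than in TIA1 KO MEFs. Stx17, the syntaxin of the autophagosome membrane, read 9.49 and 9.52 in WT MEFs, 10.60 and 10.58 in TIA1 KO, and 10.09 and 9.97 in TIAR KO MEFs. Its rise of 1.09 (SE 0.15, 2.13-fold, adjusted p = 0.0443) in TIA1 KO MEFs was lost in 9 of 13 other analyses, turned to -0.14 with arrays set to a common median, and was 0.43 (SE 0.37) and 0.07 (SE 0.34) on further Stx17 probes. The Vps16 call in TIA1 KO MEFs was lost in 5 of 13 other analyses, with estimates between -3.37 and -1.725. That of Stx17 was lost without TIA1 KO replicate 1, among others. The fits without either WT array and that with the scanner's processed signal lost both calls. They cannot decide, because no probe on the array passed in them. The calls of Vps16 and Pink1 between the knockouts were each lost in 7 of 13, among them without loess and with the authors' log2 table. Their estimates stayed between 1.535 and 2.924 for Vps16 and between 1.816 and 2.958 for Pink1. The fits without either TIAR KO array were among the 7, and no probe passed in them either. Lamp1, a lysosomal membrane protein used to mark lysosomes in the study, read 17.81 and 18.11 in WT MEFs, 17.80 and 18.11 in TIA1 KO, and 17.91 and 17.64 in TIAR KO MEFs. The groups overlapped, and the differences of -0.01 (SE 0.21, adjusted p = 0.984) and -0.18 (SE 0.18, adjusted p = 0.679) did not pass the test.

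**Figure D4:**
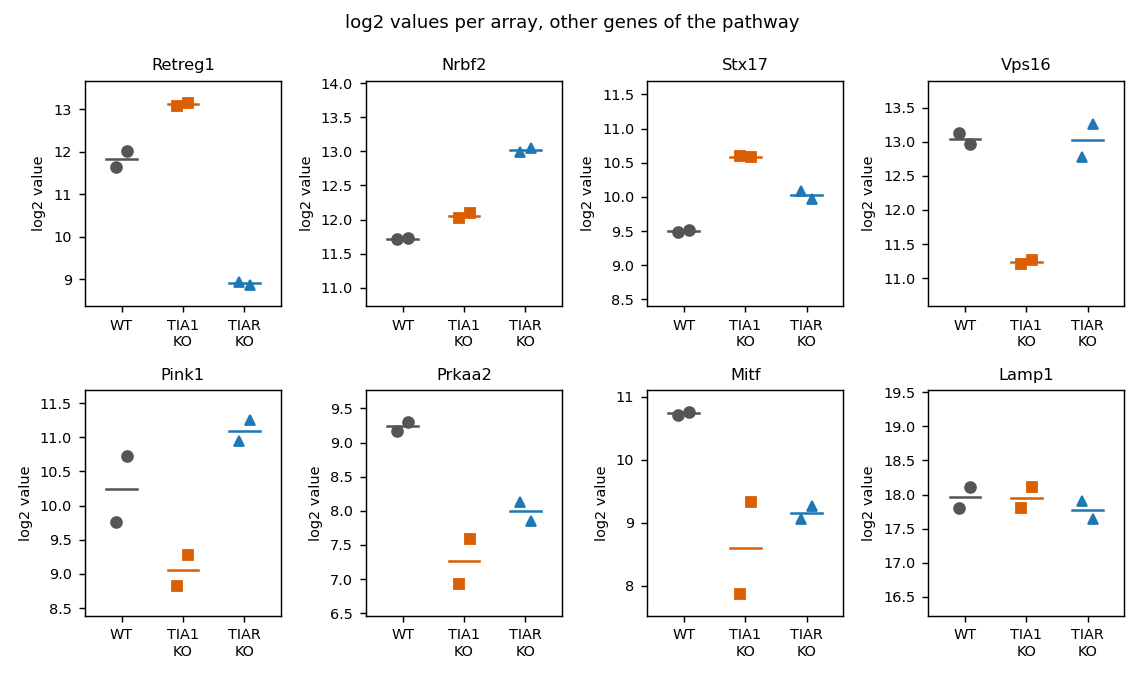
Normalized log2 values (vertical axis) of 8 further genes of the pathway on each array by group, with a symbol per array and a line at the mean of the 2 arrays; each panel has its own scale. Retreg1 was lowest on the TIAR KO arrays, at 8.93 and 8.87, and Vps16 on the TIA1 KO arrays, at 11.21 and 11.27, while the groups overlapped for Lamp1.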

How the data were processed

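RNA of 2 independent experiments per group was labelled with Cy3 and hybridized to Agilent mouse arrays. The authors deposited spot intensities from Agilent Feature Extraction 10.7.3.1, not normalized between arrays, and a table of normalized log2 values. Per the labels they used limma, with no version given. Probe positions were those of the files (mm9), and exon or UTR was not analysed here. The members and gene lists were chosen with earlier results of these data known.

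Mean intensities were corrected by normexp against the median local background (offset 50), taken to log2, put through 1 pass of cyclic loess and then quantile normalization of all spots. Spots of controls and those flagged as non-uniform or population outliers (176 to 291 per array) were removed and spots of a probe averaged. limma (lmFit, eBayes) was fitted to the 4 arrays of each comparison over all 55681 probes without covariates, with Benjamini-Hochberg adjustment. The scanner rated each spot, and a probe counted as well above background where 50% or more of its spots did. No spot was saturated. The fits were tested on simulated data with changes far larger than those of the members. That test therefore says nothing about changes of the members' size. Residual spread came from 2 arrays per group, which limits the precision of every value, and p-values cover the spread between these samples only.

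The 34 members were read from the brightest probe, with values per array for those called and for Map1lc3b and Sqstm1, and further probes where a gene was called. Genes of the wider list were named if called on their brightest probe, and Lamp1 in any case. Values per array of Gabarap, Gabarapl1, Ulk1 and Vmp1, and those of Mtor, were added after they were seen. Old names in the files were 9430023L20Rik (Atg101), 5430411K18Rik (Epg5), 1700021K19Rik (Rubcn), Wdr45l (Wdr45b), Fam134b (Retreg1) and Emr1 (Adgre1). Software was R 4.3.3, limma 3.58.1, Python and matplotlib.

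The 13 other analyses of each comparison used the scanner's processed signal at its 75th percentile, a normexp offset of 16, no loess, scaling to a common array median, the authors' log2 table, a test limited to probes that both arrays of some group rated well above background, all 6 arrays in 1 fit, the replicate number as a block, a test of the fold above 2 itself (limma's treat), and each of the 4 arrays left out in turn, the lone array of its group then being assumed to vary like the other group. Slide as a block was not run because all arrays shared 1 slide. No probe on the array passed in TIA1 KO MEFs without either WT array or with the scanner's processed signal. None passed between the knockouts without either TIAR KO array or with the replicate block. A call lost in these fits tells nothing about its gene.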

Additional observations from a re-analysis of the deposited data

Results flagged for a closer look

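The knockouts differed from each other by the direct test for 3 member probes and 3 further genes of the pathway, each given as TIAR KO minus TIA1 KO MEF on the log2 scale. The differences were 1.447 for Map1lc3a, 1.9428 for the Wipi1 probe of middle level, 2.0421 for Pink1, 1.7809 for Vps16 and -4.2089 for Retreg1. The dimmer Atg4c probe had a measured difference of 1.2535. It was near background on both TIA1 KO arrays, so the difference is read as at least 1.81-fold. The Wipi1 probe and Pink1 were near background on 1 of the 2 TIA1 KO arrays. The direct test does not use the WT arrays. All 6 calls were lost with the replicate number as a block, where 0 of all probes were called between the knockouts. They were also lost without either TIAR KO array, where no probe on the array passed. These losses therefore tell nothing about the 6 results. Each difference kept its sign in all 13 other analyses. Slide row, strain and line differ between these groups as well and cannot be told apart from genotype.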

How the results depend on the processing

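Values for the members are given as counts of the 54 probes called and as median log2 differences. In TIA1 KO MEF the 2 probes called lower became 0 with the scanner's processed signal, 1 with an offset of 16, without loess or with the authors' table, 6 among probes well above background, 9 with all 6 arrays in 1 fit (where 1 was also called higher), 40 with scaling to a common median, and 0 under treat. Leaving out 1 array gave 0 to 11 lower and 0 to 1 higher, with 1 higher and 2 lower without TIA1 KO replicate 1, 11 lower without replicate 2, and 0 without either WT array. The median of -0.26 became -0.44 with the processed signal, beside 1.98 over all probes, and -0.42 without loess, beside -0.12. It became -1.65 with scaling to a common median and -0.41 with the authors' table, and lay between -0.413 and -0.2667 with an array left out. No probe on the array passed without either WT array or with the processed signal. More of all probes were called without a TIA1 KO array than as reported. The member counts with an array left out are therefore not read as changes in the members alone. With scaling to a common median, TIA1 KO differences turned to -1.20 for Atg12, -1.25 for Map1lc3a, -1.49 for Sqstm1, -1.23 for Nrbf2, -0.14 for Stx17 and -1.48 for the Gapdh probe that had been above WT, while all 8 Gapdh probes were called lower, at -1.83 to -1.42. That setting moved the median of all probes to -0.67 in TIA1 KO MEF and to 0.63 between the knockouts.

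In TIAR KO MEF the 2 probes called higher became 1 with the processed signal, without loess, with scaling to a common median or with the authors' table, and 0 under treat. The 3 called lower became 0 with the processed signal or under treat and 5 with scaling to a common median. Fewer were also called lower without WT replicate 2, TIAR KO replicate 1 or TIAR KO replicate 2. Fewer of all probes were called in those fits too, but some still passed. Of all probes, 1885 were called higher and 1321 lower as reported, and 1424 and 2715 with scaling to a common median. The processed signal called 1553 higher and 973 lower of all probes, and treat 697 and 319. The median of 0.03 became -0.13 with the processed signal and -0.31 with scaling to a common median, and lay between -0.07188 and 0.06118 with an array left out.

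Between the knockouts the 3 probes higher in TIAR KO MEF became 0 with the processed signal (where 1 was lower), with the authors' table or under treat, 1 with an offset of 16, 8 among probes well above background, 7 with all 6 arrays in 1 fit and 24 with scaling to a common median. Leaving out 1 array gave 0 to 12, 0 without either TIAR KO array and 5 or 12 without a TIA1 KO array. The median of 0.27 became 0.20 with the processed signal, beside -1.845 over all probes, and 1.21 with scaling to a common median. It lay between 0.1449 and 0.3482 with an array left out. The member counts with an array left out moved with those of all probes. No probe on the array passed without either TIAR KO array, and more of all probes were called without a TIA1 KO array than as reported. These counts are therefore not read as changes in the members alone.

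The shares of all called probes that were higher, 61.6%, 58.8% and 51.3% in the 3 comparisons, became 11.9%, 34.4% and 87.2% with scaling to a common median, 47.2% in TIA1 KO MEF with all 6 arrays and 44.7% among probes well above background, where it was 61.8% between the knockouts, and 8.28% between the knockouts with the processed signal, which called no probe in TIA1 KO MEF. It was 75.3% in TIA1 KO MEF with the replicate block. The falls in TIA1 KO MEF did not come from fewer higher calls. With a common median those rose from 1213 to 1876, while lower calls rose from 756 to 13925. With all 6 arrays they were 1881 and 2105. Arrays with the same replicate number did not deviate together over all probes (correlations of 0.078, 0.0302 and -0.0729). With 2 arrays per group this cannot decide whether the numbers pair them. With the replicate block, 0 member probes were called in TIA1 KO MEF, beside 505 higher and 166 lower over all probes. In TIAR KO MEF 2 were higher and 3 lower, beside 1946 and 1362 over all probes. Between the knockouts 0 member probes and 0 of all probes were called, so that count tells nothing about the members.

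Of 751 values for single genes in TIA1 KO MEF, 617 kept both sign and call, 34 changed sign without a call on either side, 35 lost and 59 gained a call, and 6 reversed. In TIAR KO MEF 654 of 751 kept both and 51 changed sign without a call, and between the knockouts 619 and 45 of 752 did. None reversed in these comparisons. The cause of these shifts was not tested.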
